A study of Rattus norvegicus with 8 samples.

Results

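Axon guidance ligands and receptors were examined in cultured cells of the dorsal root ganglion, where the cell bodies of sensory neurons lie. The members were 50 listed rat genes of 9 classes: semaphorins, plexins, neuropilins, ephrins, Eph receptors, netrins, netrin receptors, Slits and Robos. They were found by the RefSeq accession printed for each array probe. Of the 50, 42 had a probe matched in this way, and all 42 were tested among 12148 genes in all. No probe was matched to Sema3f, Sema6a, Plxna1, Plxna4, Plxnb1, Plxnc1, Plxnd1 or Ephb3, which were not analysed here. The tested genes comprised 24 of 26 ligands and 18 of 24 receptors, and the plexins were the least covered class, with 3 of 8.

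The ganglia came from Wistar rats aged 0 to 5 days, with both sexes pooled, and were dissociated with collagenase. All groups were grown in serum-free medium with 5-fluoro-2'-deoxyuridine, an inhibitor of DNA synthesis that limits dividing cells. After 2 to 3 days in culture a human protein was added for 5 days at 100 ng/ml. Of the 8 arrays, 3 came from cultures given its P61S mutant, 3 from cultures given the double mutant P61S/R100E and 2 from cultures given the wild type form. Untreated cultures were not analysed here, so a value common to the 3 groups has no untreated level beside it. The labels do not say whether replicates were separate cultures or animals, so the tests measure only the spread between these samples, which may be technical.

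Guidance cues are proteins that attract or repel the growing tip of an axon. Semaphorins signal through plexins, and most secreted semaphorins of class 3 also need a neuropilin as co-receptor. Ephrins are bound to the membrane and act on Eph receptor tyrosine kinases of a touching cell, netrins act through Dcc and the Unc5 receptors, and Slits repel axons through Robo receptors. In sensory ganglia these cues shape where axons enter the spinal cord and the skin, and several remain expressed in mature neurons and in glia.

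Each value below is the log2 signal of a probe relative to the 75th percentile of its array, so a signal of 0 lies at that percentile. Where a gene had several tested probes, the brightest stood for it. Because a signal also depends on the probe, levels are compared between arrays and not between genes. The 75th percentile signal ran from 3267 to 5269 over the 8 arrays, the share of spots well above background from 78.67% to 88.83%, and no array had a saturated spot. All arrays lay on 1 slide. Wild type replicate 2 stood apart, at 68.3 on the first principal component against -27.9 to 19.1 for the other arrays. For several members described singly a difference from wild type is also given without it. The cultures held several cell types. Of the markers listed for each, 10 of 12 for sensory neurons, 12 of 12 for satellite glia and Schwann cells, 9 of 10 for fibroblasts, 10 of 10 for macrophages and 8 of 10 for endothelial and mural cells were tested. In such bulk RNA, fewer cells of a type and less RNA per cell cannot be told apart.

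Setting P61S/R100E against P61S addresses what the added R100E change does. Between these groups no guidance gene passed the test, and higher and lower members were about balanced. Of 42 members, 22 were higher with P61S/R100E and 20 lower, with a median log2 difference of 0.01, against -0.01 over all genes tested. limma called 0 members at an adjusted p under 0.05, and the same was true of all 23585 probes tested (0%). At an unadjusted p under 0.05 there were 2 members, Efnb1 (higher) and Epha2 (lower), against 4.68% of all genes. The arrays of the groups did not overlap in 5 members, 3 higher (Efnb1, Efna1 and Plxna2) and 2 lower (Epha2 and Plxnb2). Among all genes 15.7% did not overlap, 7.21% higher and 8.48% lower. Both shares of members lay near or below those of all genes.

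Against wild type, which asks how each mutant form differs from the unchanged protein, more members were lower than higher. With P61S/R100E, 29 of 42 members were lower than in wild type and 13 higher (median log2 difference -0.10, against -0.03 over all genes). With P61S, 35 were lower and 7 higher (median -0.14, against -0.02 over all genes). The share of all genes below 0 was 57.1% and 57.2%. Without wild type replicate 2 this excess was not seen. Then 23 members were higher and 19 lower with P61S/R100E, and 25 higher and 17 lower with P61S. The median over all probes moved too, from -0.06 to 0.01 with P61S/R100E and from -0.04 to 0.03 with P61S. The excess also changed with the scaling. Centred on the median of detected probes, the arrays gave 19 higher and 23 lower with P61S/R100E and 17 higher and 25 lower with P61S. Quantile normalization gave 20 higher and 22 lower, and 13 higher and 29 lower.

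limma called 0 members, and 0% of all probes, against wild type in either comparison. At an unadjusted p under 0.05 there were 2 members for P61S/R100E against wild type, Epha2 and Efna2 (both lower), where all genes had 5.19%. For P61S against wild type there were 0 members, where all genes had 1.72%. The smallest adjusted p of a member was 0.75 in the former comparison, and 1.0 in the latter and between the mutants. For P61S/R100E against wild type the groups did not overlap in 6 members, 2 higher (Efnb1 and Efna1) and 4 lower (Epha2, Efna2, Unc5c and Ntn4), against 16.2% of all genes (7.46% higher, 8.73% lower). For P61S against wild type they did not overlap in 7 members, 2 higher (Sema3b and Epha7) and 5 lower (Sema3c, Sema4b, Efna2, Epha4 and Unc5c), against 17.7% of all genes (8.4% higher, 9.31% lower). Both comparisons use the same 2 wild type arrays. Efna5, Ntn1, Ntn4 and Dcc passed the filter on background through wild type alone, which favours a lower value in the mutants, so Ntn4 lends no weight to these counts. Over the 38 members above background on all arrays, 26 were lower and 12 higher with P61S/R100E, and 32 lower and 6 higher with P61S.

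**Figure D1:**
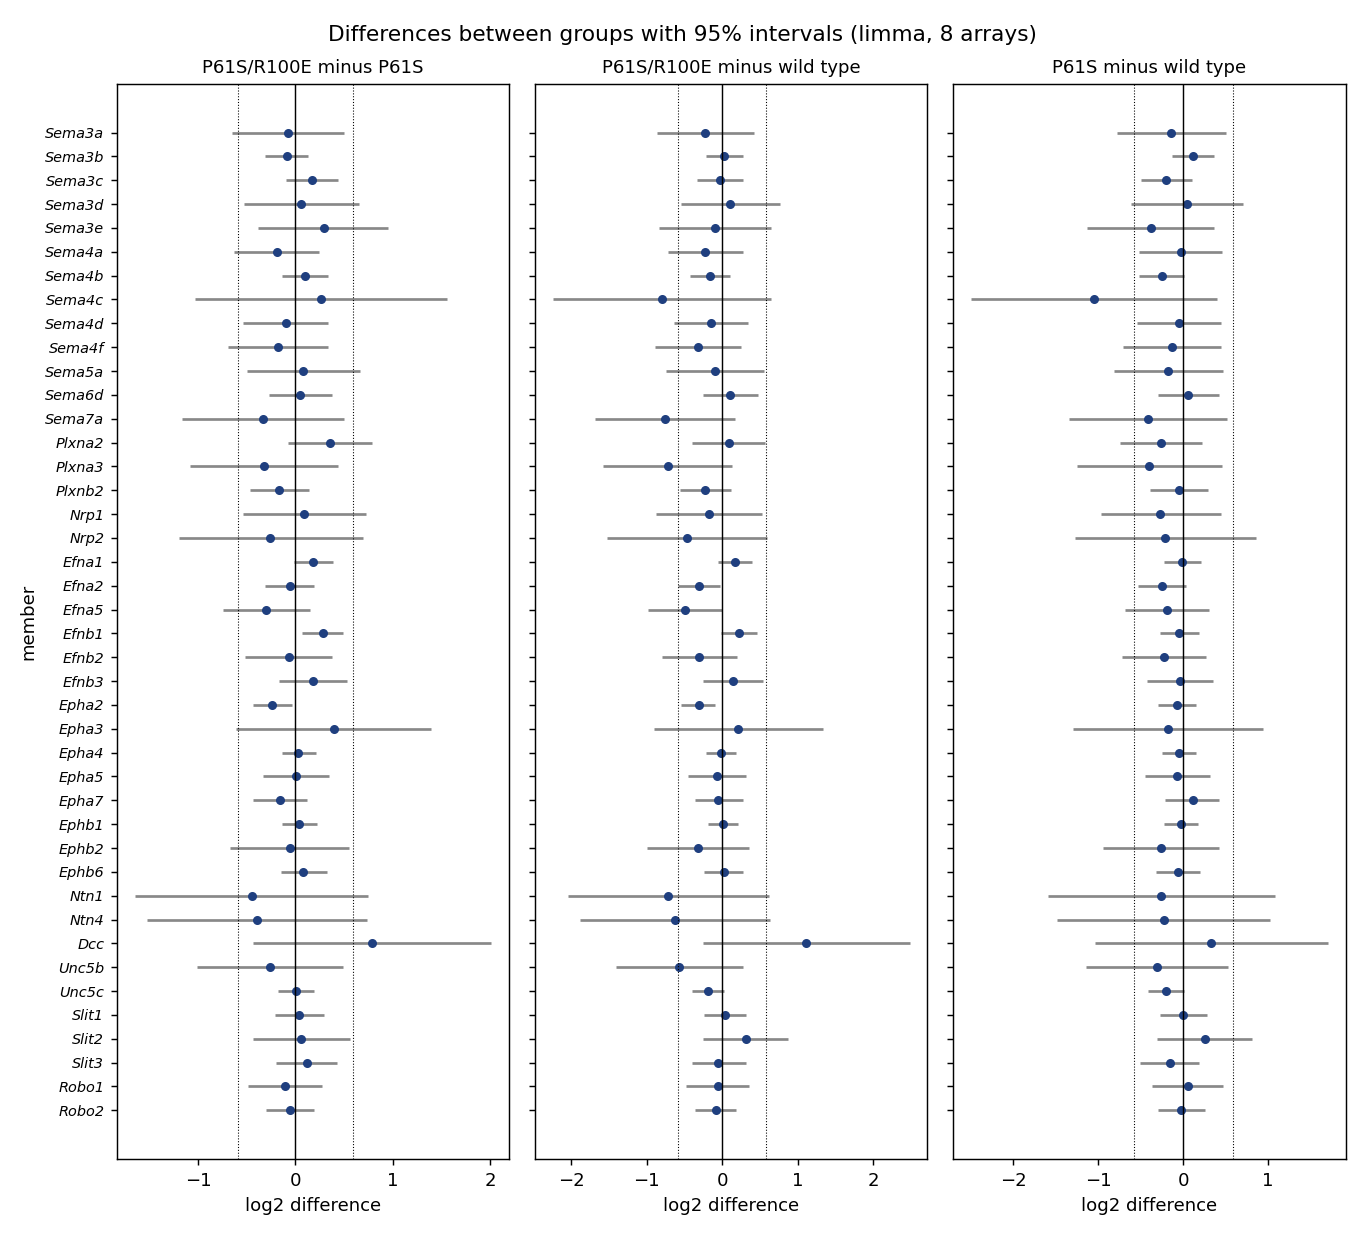
Log2 difference (horizontal axis) of each of the 42 measured members (vertical axis, in class order) in the 3 comparisons, with the 95% interval from limma over 8 arrays; dotted lines mark 1.5-fold in either direction. Most points sit within the dotted lines, and the intervals of Sema4c, Ntn1, Ntn4, Dcc and Epha3 are among the widest.

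The precision differed widely among members. The 95% interval lay wholly inside 1.5-fold in either direction for 23 of 42 members between the mutants, where 72.7% of all genes did. Against wild type this held for 20 members with P61S/R100E (63% of all genes) and 22 with P61S (67.5% of all genes). The median SD between arrays of a group, pooled over groups, was 0.247 for the members and 0.148 for all genes. For the remaining members the interval reached 1.5-fold or more in at least 1 direction.

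In 3 of 42 members, Epha2, Efnb1 and Efna1, the 3 arrays of the double mutant were all above or all below the other 5 arrays. Among all genes 6.45% did so, a share near that of the members. Epha2 is an Eph receptor that binds ephrins of the A class, Efna1 is one of these ligands, and Efnb1 is a transmembrane ephrin of the B class. Their promoters are shown because these 3 genes are the ones in which the double mutant's arrays stood outside the rest. Each is the stretch of 250 bases before the annotated start in RefSeq, build GRCr8, at chr5:158888379-158888628 on the plus strand (Epha2), chrX:68297279-68297528 on the plus strand (Efnb1) and chr2:176986822-176987071 on the minus strand (Efna1). Capitals mark matches to the motifs searched.
Epha2: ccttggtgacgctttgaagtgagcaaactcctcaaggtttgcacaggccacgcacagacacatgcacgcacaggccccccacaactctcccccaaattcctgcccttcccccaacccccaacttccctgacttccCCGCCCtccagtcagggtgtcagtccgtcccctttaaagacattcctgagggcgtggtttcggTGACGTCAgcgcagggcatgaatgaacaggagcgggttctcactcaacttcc
Efnb1: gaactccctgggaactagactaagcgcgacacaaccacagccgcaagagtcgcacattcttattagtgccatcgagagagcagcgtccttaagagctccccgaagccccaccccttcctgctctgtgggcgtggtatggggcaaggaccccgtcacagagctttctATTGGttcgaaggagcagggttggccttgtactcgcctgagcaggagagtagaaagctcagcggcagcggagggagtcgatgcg
Efna1: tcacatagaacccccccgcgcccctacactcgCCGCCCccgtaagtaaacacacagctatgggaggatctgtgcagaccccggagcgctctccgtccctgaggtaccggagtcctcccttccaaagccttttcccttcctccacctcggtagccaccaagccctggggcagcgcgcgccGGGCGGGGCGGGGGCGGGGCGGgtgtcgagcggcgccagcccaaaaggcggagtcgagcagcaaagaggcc

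The motifs were searched on both strands: the CRE (TGACGTCA), an AP-1 site (TGANTCA), the GC box (GGGCGG), the CCAAT box (CCAAT) and the TATA box (TATAAA). Epha2 held a CRE match whose first base lay 52 bases before the start and a GC box match at 115. Efna1 held 5 GC box matches, at 218, 71, 66, 60 and 55 bases, some of which share a base, and Efnb1 held a CCAAT box match at 84. No motif searched was found in all 3 promoters. Of 33469 RefSeq windows of the same length, 1.59% held the CRE, 6.34% the AP-1 site, 30.5% the GC box, 34% the CCAAT box and 12.9% the TATA box. A match describes the letters only.

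Epha2 stood at 0.49, 0.46 and 0.44 on the P61S arrays, at 0.33, 0.19 and 0.17 on the P61S/R100E arrays and at 0.46 and 0.62 on the wild type arrays. Every P61S/R100E array was below every other array. The log2 difference was -0.24 from P61S (SE 0.0847, 1.18-fold, 95% interval -0.44 to -0.04) and -0.31 from wild type (SE 0.0947, 1.24-fold, -0.54 to -0.09), with limma adjusted p of 1.0 and 0.75. P61S and wild type overlapped, with a difference of -0.08. A dimmer second probe of Epha2 pointed the same way, by -0.75 and -1.22, but its groups overlapped. The latter value leaned on wild type replicate 2: the probe stood at -5.98 and -4.35 on the wild type arrays, against a P61S/R100E mean of -6.39. Within the slide rows and the column that held both mutants, Epha2 differed between the mutants by -0.14 (row 1), -0.26 (row 2) and -0.27 (column 2). As the arrays of the mutants did not overlap, the sign of these values was fixed in advance and only their size could vary.

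Efnb1 ran the other way. It stood at -1.20, -1.41 and -1.29 with P61S, at -0.93, -1.07 and -1.07 with P61S/R100E and at -1.22 and -1.27 with wild type, so the double mutant's arrays were the highest. The log2 difference was 0.28 from P61S (SE 0.0885, 1.21-fold, 95% interval 0.07 to 0.49) and 0.23 from wild type (SE 0.0989, 1.17-fold, -0.01 to 0.46). limma's adjusted p was 1.0 and 0.75. Within row 1, row 2 and column 2 of the slide the difference between the mutants was 0.37, 0.22 and 0.34. The sign of these values too was fixed by the lack of overlap.

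Efna1 was likewise highest with P61S/R100E. Its signal was 0.94, 0.73 and 0.80 on those arrays, 0.62, 0.62 and 0.69 with P61S and 0.66 on both wild type arrays. The difference was 0.18 from P61S (SE 0.0835, 95% interval -0.02 to 0.38) and 0.17 from wild type (SE 0.0933, -0.05 to 0.39), each about the size of the spread among the P61S/R100E arrays themselves (range of 0.73 to 0.94). In row 2 of the slide the difference between the mutants was 0.08 and in row 1 it was 0.32, with the sign again fixed by the lack of overlap.

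**Figure D2:**
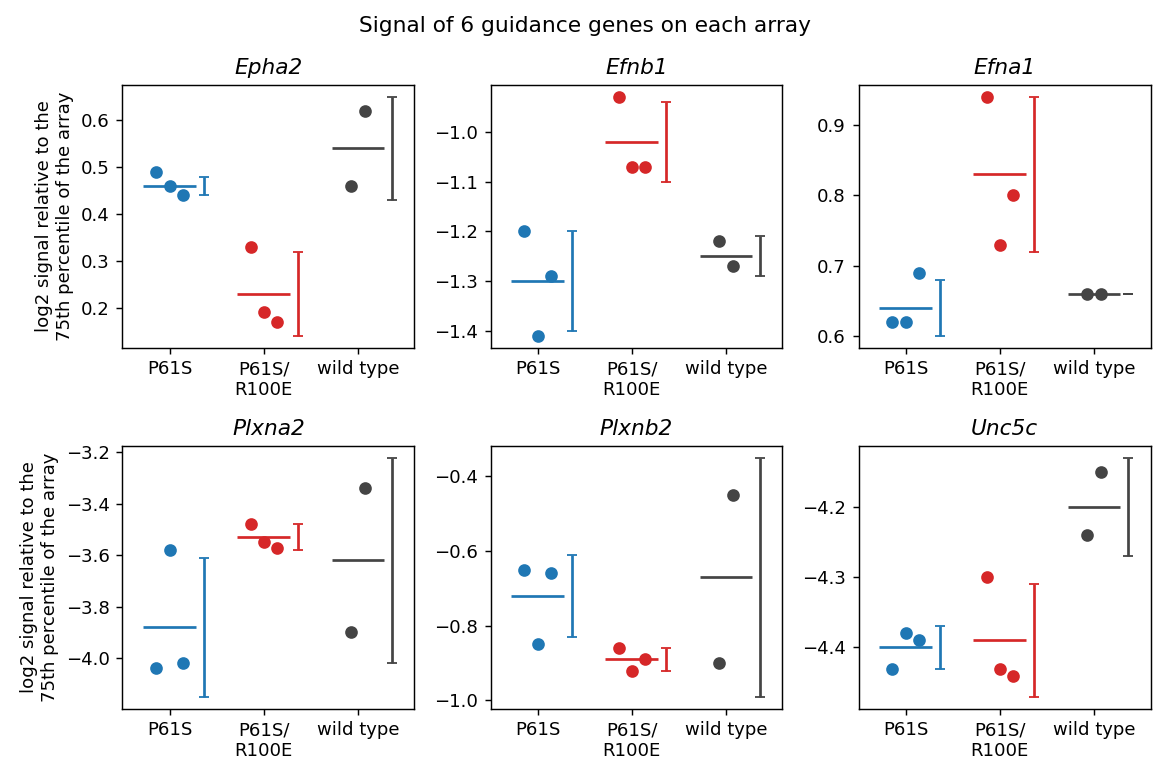
Log2 signal relative to the 75th percentile of the array (vertical axes, each with its own range that does not start at 0) of 6 guidance genes on each array, by group; points are arrays, horizontal lines are group means, and the bars beside them are the mean ± 1 SD (n = 3, 3 and 2). In Epha2 the 3 P61S/R100E points lie below the other 5, and in Efnb1 and Efna1 they lie above them.

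The other ephrins did not separate the double mutant from both groups. Efna2, an ephrin of the A class, stood at -5.57, -5.41 and -5.60 with P61S, at -5.57, -5.68 and -5.52 with P61S/R100E and at -5.40 and -5.15 with wild type. Both wild type arrays were the highest, by a narrow margin over P61S replicate 2. The difference from wild type was -0.31 with P61S/R100E (SE 0.117) and -0.25 with P61S (SE 0.117), but a second probe of Efna2 gave 0.13 and -0.01. Without wild type replicate 2 the differences of the brighter probe were -0.18 and -0.12. Efna5, which guides topographic maps, was near background: its probe was well above it on 2 of 3 P61S arrays, 1 of 3 P61S/R100E arrays and 2 of 2 wild type arrays. Its signals were -7.34, -7.21 and -7.41, then -7.68, -7.94 and -7.22, then -7.01 and -7.24 in that order of groups, and the groups overlapped. Efnb2, the ligand of Ephb receptors that also marks arteries, stood at -4.36, -4.23 and -4.45 with P61S, at -4.28, -4.73 and -4.25 with P61S/R100E and at -4.40 and -3.85 with wild type. Wild type replicate 2 was the highest of the 8. Efnb3 differed by at most 0.18 in any comparison.

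Among the remaining Eph receptors the tightest values belonged to Epha4 and Ephb1. Epha4, a receptor that binds ephrins of both classes, stood at -2.65, -2.63 and -2.66 with P61S, at -2.65, -2.53 and -2.66 with P61S/R100E and at -2.62 and -2.57 with wild type. Ephb1, a receptor of ephrin-Bs, stood at -3.77, -3.65 and -3.69, at -3.69, -3.69 and -3.60 and at -3.66 and -3.68. All 8 arrays lay within 0.13 of each other for Epha4 and within 0.16 for Ephb1, and the differences between groups lay between -0.05 and 0.04. By the brightest probe, the 95% interval of P61S/R100E minus P61S ran from -0.14 to 0.21 for Epha4 and from -0.14 to 0.22 for Ephb1. For these probes that bounds a change well below 1.5-fold. The P61S arrays of Epha4 lay below both wild type arrays by -0.05 on average, a value that was 0.05 with quantile normalization. The second probe of Epha4 gave 0.14 between the mutants, 0.03 for P61S/R100E against wild type (the brighter probe gave -0.02) and -0.11 for P61S against wild type. On that probe the groups overlapped in every comparison. The second probe of Ephb1 gave 0.01, 0.09 and 0.07 (the brighter probe gave -0.03 in the last). Its 95% interval between the mutants, from -0.68 to 0.70 (SE 0.292), reached past 1.5-fold in both directions.

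Epha7 stood at -5.11, -5.18 and -5.22 with P61S, at -5.50, -5.39 and -5.09 with P61S/R100E and at -5.33 and -5.23 with wild type. The P61S arrays lay just above both wild type arrays, by 0.11 on average (SE 0.133), and the P61S/R100E arrays spanned both groups. Epha3 had the widest spread of the Eph receptors, with an SD of 0.81 among the P61S/R100E arrays. Epha5 and Ephb6, the latter a receptor without kinase activity, differed by at most 0.08 in size in any comparison. Ephb2 differed by -0.06, -0.32 and -0.26 (SE 0.257 to 0.287) in the 3 comparisons in the order given above, and wild type replicate 2 was its highest array. Against wild type replicate 1 alone the differences of Ephb2 were -0.04 with P61S/R100E and 0.02 with P61S.

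By the brightest probe, none of the 13 measured semaphorins separated the mutants. Between P61S/R100E and P61S 7 were higher and 6 lower. In 0 of 13 did the arrays of the groups not overlap, against 15.7% of all genes. Sema3a, the secreted repellent of sensory axons, stood at -5.42, -5.41 and -5.52 with P61S, at -5.44, -5.88 and -5.26 with P61S/R100E and at -5.73 and -4.89 with wild type. The highest and the second lowest of these values were the wild type arrays (mean -5.31 ± 0.60, SD, n = 2), and all groups overlapped. The differences were -0.08 (SE 0.242) between the mutants, -0.22 for P61S/R100E and -0.14 for P61S against wild type (SE 0.271 each). Without wild type replicate 2 the last 2 became 0.20 and 0.28.

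Sema3c, a secreted semaphorin that acts through both neuropilins, stood at -0.66, -0.50 and -0.66 with P61S, at -0.27, -0.41 and -0.62 with P61S/R100E and at -0.47 and -0.34 with wild type. All 3 P61S arrays lay below both wild type arrays, narrowly at the closest, and the mean difference was -0.20 (SE 0.126). A second probe of Sema3c gave -0.25 without such a gap. Its P61S arrays (-1.98, -2.11 and -1.97) lay between the wild type arrays (-2.23 and -1.30). Sema3b, another secreted semaphorin, stood at 3.29, 3.30 and 3.27 with P61S, at 3.16 and 3.17 with wild type and at 3.36, 3.17 and 3.07 with P61S/R100E. P61S was thus above wild type by 0.12 (SE 0.103) with no overlap, and P61S/R100E overlapped both. Sema3d and Sema3e differed by at most 0.38 in size (SE up to 0.315). The second probe of Sema3d did separate the mutants, at -6.42, -6.14 and -6.52 with P61S/R100E against -6.91, -6.73 and -6.66 with P61S and -6.54 and -6.94 with wild type. It lay 0.41 higher with P61S/R100E than with P61S (SE 0.151, limma adjusted p = 1.0), where the brighter probe gave 0.06 (SE 0.248) and its groups overlapped.

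Of the membrane semaphorins, Sema4b stood at -0.50, -0.56 and -0.52 with P61S, at -0.28, -0.59 and -0.42 with P61S/R100E and at -0.33 and -0.21 with wild type. The P61S arrays lay below both wild type arrays, by -0.25 on average (SE 0.111, limma adjusted p = 1.0), and the double mutant overlapped both. On the dimmer second probe of Sema4b it was P61S that overlapped wild type. There the P61S/R100E arrays (-6.62, -6.53 and -6.53) lay below both wild type arrays (-6.36 and -5.58). Sema4c, which signals through Plxnb2, had the widest scatter of the semaphorins. Its signals were -3.76, -2.36 and -3.75 with P61S, -2.48, -2.55 and -4.06 with P61S/R100E and -2.53 and -1.95 with wild type. A high and a low value occurred within each mutant group, and the difference of -1.05 between P61S and wild type had a 95% interval from -2.50 to 0.40. Against wild type replicate 1 alone that difference was -0.76.

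Sema7a, a membrane-anchored semaphorin that promotes sensory axon growth through integrins, stood at -3.43, -3.90 and -3.48 with P61S, at -3.65, -4.30 and -3.86 with P61S/R100E and at -3.84 and -2.52 with wild type. Wild type replicate 2 was higher than every other array, while replicate 1 lay among the mutants. The difference between P61S/R100E and wild type was -0.75 (SE 0.392); it was -0.09 without wild type replicate 2 and -1.41 without replicate 1. Sema4a, Sema4d, Sema4f, Sema5a and Sema6d differed by at most 0.32 in size in any comparison, with SE up to 0.272. Second probes differed in sign from the brighter probe for Sema5a against wild type (0.09 with P61S/R100E and 0.04 with P61S), for Sema6d and Sema3d in P61S against wild type (-0.01 and -0.02) and for Sema4b between the mutants (-0.19).

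For the receptors of semaphorins, 3 plexins and 2 neuropilins were measured. Plxna2, which serves class 3 and class 6 semaphorins, stood at -4.04, -3.58 and -4.02 with P61S and at -3.48, -3.55 and -3.57 with P61S/R100E, with -3.90 and -3.34 in wild type. The double mutant's arrays lay above all P61S arrays, barely so above replicate 2, and the wild type arrays lay on either side of it. The difference of 0.35 between the mutants (SE 0.183) was 0.02 with the column of the slide as a covariate. Column 2 alone held both mutants, so that value rests on 1 array against 1, which differed by 0.03. Plxnb2, the receptor of class 4 semaphorins, stood at -0.65, -0.85 and -0.66 with P61S, at -0.86, -0.92 and -0.89 with P61S/R100E and at -0.90 and -0.45 with wild type. The double mutant's arrays were below all P61S arrays, barely so below replicate 2 (mean difference -0.17, SE 0.129), and wild type replicate 1 lay among its arrays.

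Plxna3 stood at -4.48, -4.02 and -4.51 with P61S, at -4.49, -4.46 and -5.02 with P61S/R100E and at -4.52 and -3.35 with wild type. Nrp1, the co-receptor of Sema3a, stood at -1.94, -2.14 and -1.96, at -1.77, -2.32 and -1.69 and at -2.22 and -1.28 in the same order. Nrp2, the co-receptor that Sema3f and Sema3c use, stood at -6.38, -5.42 and -6.48, at -6.28, -6.74 and -6.02 and at -6.47 and -5.31. In all 3 genes wild type replicate 2 was the highest array and the groups overlapped. Between the mutants the difference was -0.32 for Plxna3 (SE 0.322), 0.09 for Nrp1 (SE 0.267) and -0.26 for Nrp2 (SE 0.401). Plxna3 differed from wild type by -0.72 with P61S/R100E and by -0.40 with P61S (SE 0.36 each). Against wild type replicate 1 alone these values were -0.14 and 0.18.

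Netrins and Dcc were close to background and varied widely between arrays. Ntn1, the secreted netrin that attracts axons, was well above background on 2 of 3 P61S, 2 of 3 P61S/R100E and 2 of 2 wild type arrays. It stood at -7.54, -7.11 and -7.51, at -7.61, -8.89 and -7.01 and at -7.69 and -6.56. Dcc, the netrin receptor that mediates attraction, was above background on the same numbers of arrays and stood at -7.24, -6.74 and -7.40, at -7.33, -6.01 and -5.69 and at -8.15 and -6.76. The highest Dcc values belonged to P61S/R100E replicates 2 and 3, and replicate 1 lay among the P61S arrays. Its difference between the mutants, 0.78 (SE 0.516), was -0.28 in the authors' deposited log2 values, and against wild type P61S/R100E differed by 1.11 (SE 0.577, limma adjusted p = 0.75). That value was 0.42 without wild type replicate 1 and 1.81 without replicate 2. Ntn4 was above background on as many arrays of each group and had an SD of 1.07 among the P61S arrays.

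Of the receptors through which netrins repel, Unc5c varied less than Unc5b. Unc5c stood at -4.43, -4.38 and -4.39 with P61S, at -4.30, -4.43 and -4.44 with P61S/R100E and at -4.24 and -4.15 with wild type. Both wild type arrays were above all 6 mutant arrays. P61S differed from wild type by -0.20 (SE 0.0873, 95% interval -0.41 to 0.01) and P61S/R100E by -0.19 (SE 0.0873, -0.40 to 0.02), with limma adjusted p of 1.0 and 0.75. Between the mutants the difference was 0.01 (-0.18 to 0.19). Unc5b stood at -4.64, -4.39 and -4.72, at -4.84, -4.50 and -5.19 and at -4.87 and -3.67, with wild type replicate 2 the highest and the groups overlapping.

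In 0 of the 5 measured Slits and Robos did any groups fail to overlap. Among all genes 15.7%, 16.2% and 17.7% did so in the 3 comparisons, and 5 genes are too few to set apart from these shares. Slit2 varied more between arrays of a group (pooled SD 0.29) than the other 4. Slit2, the repellent that also promotes branching of sensory axons, stood at 1.34, 1.53 and 1.39 with P61S, at 1.66, 1.58 and 1.22 with P61S/R100E and at 1.56 and 0.79 with wild type. Here wild type replicate 2 was the lowest array. The difference of 0.25 between P61S and wild type (SE 0.237) became -0.13 without that array, that of 0.31 for P61S/R100E became -0.07, and a second probe gave -0.07 and 0.01. Robo1, a Slit receptor, stood at -5.26, -4.77 and -5.22, at -4.99, -5.34 and -5.26 and at -5.19 and -5.09. Robo2, the other measured Slit receptor, stood at -0.65, -0.63 and -0.56, at -0.84, -0.57 and -0.61 and at -0.49 and -0.68. Groups overlapped in both Robos, and their differences lay between -0.11 and 0.05. The second probe of Robo2 gave -0.07, -0.05 and 0.02 in the 3 comparisons, where the brighter probe gave -0.06, -0.08 and -0.03. Slit1 and Slit3 differed by at most 0.16 in size.

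**Figure D3:**
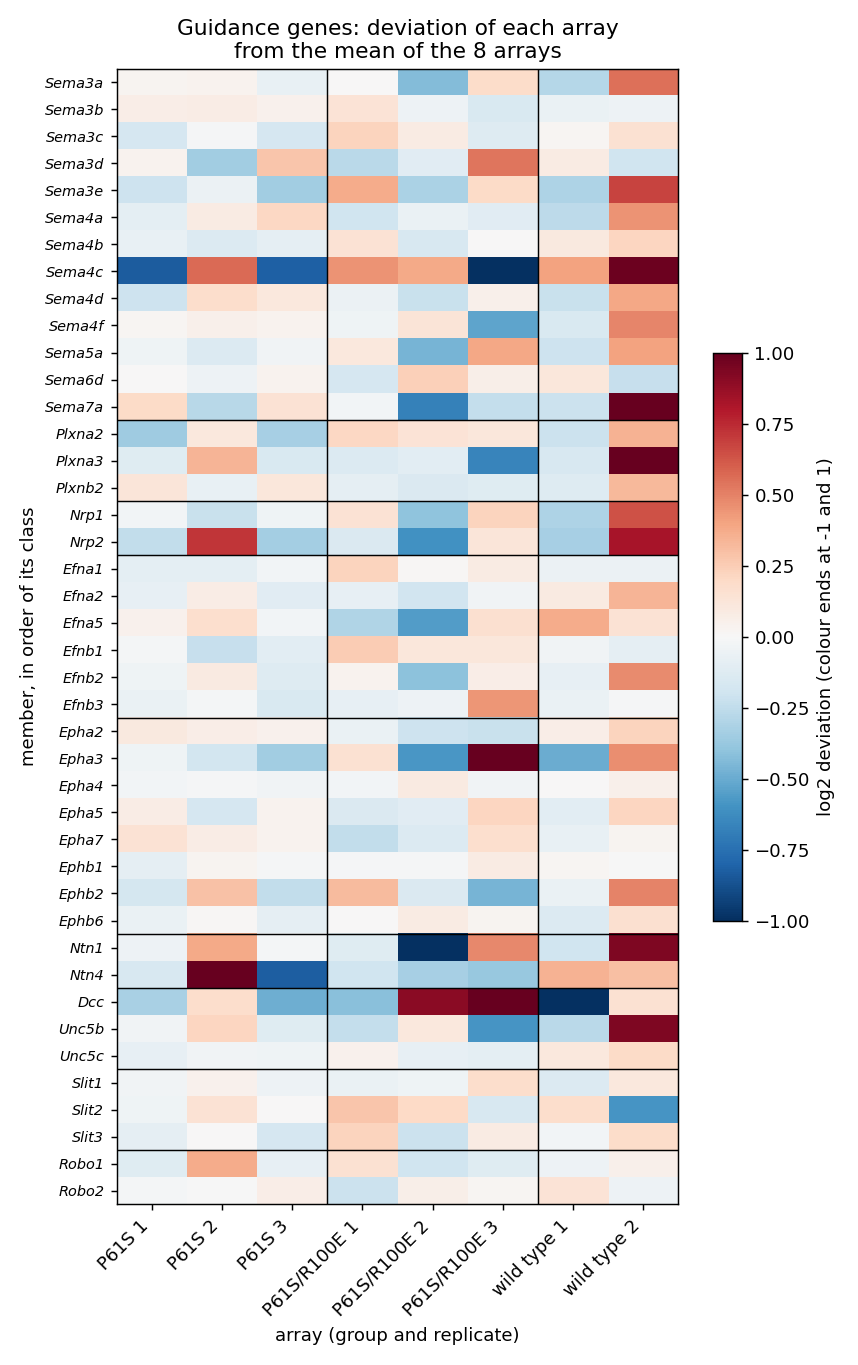
Deviation of each array (horizontal axis) from the mean of the 8 arrays for each of the 42 measured members (vertical axis, in class order, with lines between classes), as log2 on a colour scale that ends at -1 and 1. Wild type replicate 2, the last column, is the highest array in 22 of the 42 members.

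Over the members as a whole, the wild type arrays differed from each other. Wild type replicate 2 was the highest of the 8 arrays in 22 of 42 members (52.4%), where it was highest in 33.3% of all genes, and the lowest in 2 members, where all genes had 17.5%. It was above replicate 1 in 34 of 42 members, and in 60.9% of all genes. By class, it was the highest array in 9 of 13 semaphorins, 3 of 3 plexins and 2 of 2 neuropilins, in 2 of 6 ephrins and 3 of 8 Eph receptors, in 1 of 2 netrins and 2 of 3 netrin receptors, and in 0 of 3 Slits and 0 of 2 Robos. The median member lay 0.22 above its mean over 8 arrays on wild type replicate 2, and from -0.12 to 0.06 on the other arrays. Set against wild type replicate 1 alone, the median difference was 0.06 for the P61S mean and 0.01 for the P61S/R100E mean, and against replicate 2 alone it was -0.27 and -0.26.

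The summed signal of the sensory neuron markers was also highest on wild type replicate 2, at 7.48 against 7.20 to 7.37 on the other arrays (log2). That of the satellite glia and Schwann cell markers, at 6.48, lay within the range of the others (6.39 to 6.61). Such sums are carried by the brightest markers. Counted singly, that array was the highest in 4 of 10 neuron markers and 5 of 12 glia markers, against 33.3% of all genes. The part of these markers in the result was not tested. Both wild type arrays lay in column 4 of the slide and no other array did, so column and group cannot be told apart there. In row 1, where wild type replicate 1 lay, 27 members were higher and 15 lower with P61S than with wild type. In row 2, where wild type replicate 2 lay, 7 were higher and 35 lower.

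**Figure D4:**
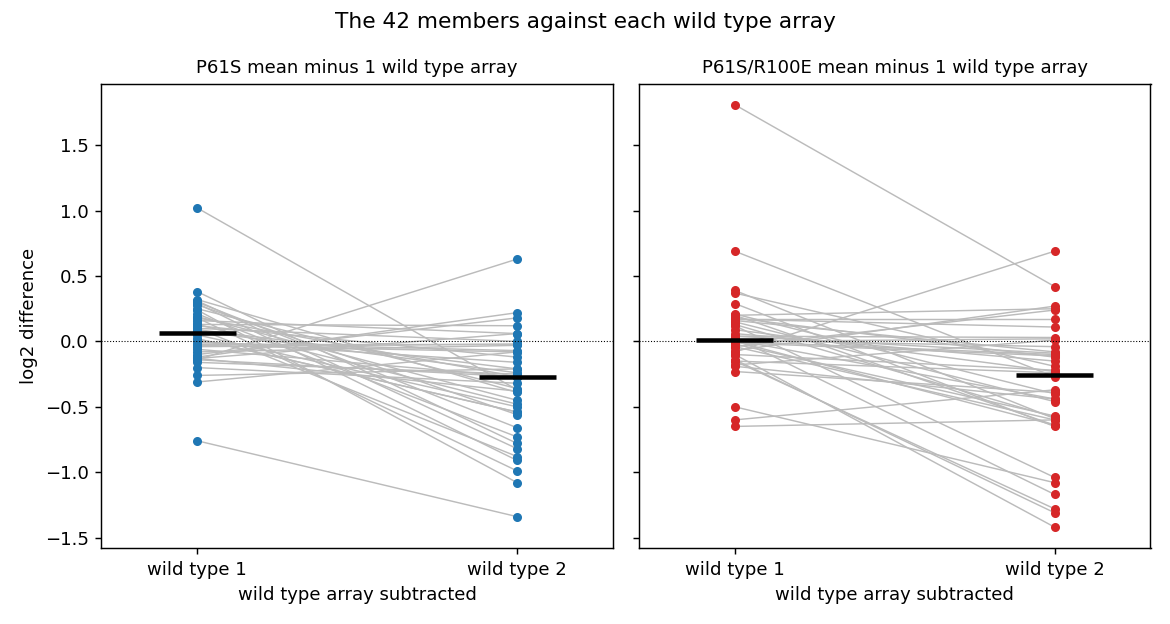
Log2 difference (vertical axis) between the mean of P61S (left) or P61S/R100E (right) and a single wild type array (horizontal axis), for the 42 measured members; each line joins 1 member and black bars are medians. The medians are 0.06 and 0.01 against wild type replicate 1 and -0.27 and -0.26 against replicate 2.

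Other genes of the pathway gave no call either. Of 20 further semaphorin, plexin, ephrin, Eph, netrin, Unc5 and Robo genes, 9 were measured, and limma called 0 of them in each comparison, with 0 at an unadjusted p under 0.05 as well. Their median differences were -0.05 between the mutants and 0.00 against wild type for either mutant. Of 59 genes for guidance effectors and co-receptors, which carry the signal from receptors to the cytoskeleton, 53 were measured and limma called 0 in each comparison. At an unadjusted p under 0.05 there were 3 between the mutants, 4 for P61S/R100E against wild type and 0 for P61S against wild type, where all genes had 4.68%, 5.19% and 1.72%, so the counts were near those of all genes or below. Dpysl2, which encodes the semaphorin effector CRMP2, was 0.21 higher with P61S/R100E than with either other group, and Dock1, a Rac activator downstream of Dcc, differed by -0.29 from P61S and by -0.35 from wild type, each comparison resting on the same P61S/R100E arrays. Neither gene passed the adjusted test. Medians of the list were 0.00, -0.08 and -0.10, in the order in which the comparisons were given.

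Markers of cell types are given beside these values. All 9 measured fibroblast markers were higher with P61S/R100E than with P61S (median 0.15, with 0 of 9 at an unadjusted p under 0.05). The differences ran from 0.0 after rounding to 0.26, and 5645 of all 12148 genes were higher too. The summed signal of these markers ran from 7.28 to 7.56 with P61S/R100E, from 7.21 to 7.35 with P61S and stood at 7.35 on both wild type arrays. Sensory neuron markers had a median difference of -0.01 between the mutants, glia markers of -0.0 and macrophage markers of 0.04. For P61S/R100E against wild type these medians were -0.05, -0.07 and 0.13, with 0.08 for fibroblast and -0.13 for endothelial and mural markers. Of 10 macrophage markers, 6 were higher and 4 lower than in wild type. In 4 of the 10 the groups did not overlap, each higher, where 7.46% of all genes did so. Endothelial and mural markers had a median of -0.16 between the mutants. Their summed signals did not follow it, at 0.95, 0.62 and 0.95 with P61S/R100E against 0.69, 0.69 and 0.70 with P61S, and at 0.86 and 0.77 with wild type. Whether these markers bear on Epha2, Efnb1 or Efna1 was not tested.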

How the data were processed

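Polyadenylated RNA of 8 samples of cultured cells was labelled with Cy3 and hybridised to one-colour Agilent rat arrays. Per the file headers, the deposited files hold spot intensity from Feature Extraction 10.7.3.1 (protocol GE1_107_Sep09, grid build rn4), with background already subtracted in the processed signal. The authors also deposited a matrix of log2 values of 22018 probes, which correlated with the scanner signal at 0.99911 to 0.99995, had column medians from 9.82 to 10.33 and served as an alternative. Per the labels' protocols, samples whose RNA integrity number was below 8.0 had been dropped.

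Control spots (4259 per array) and outlier spots were left out, spots of a probe were averaged, and log2 of the processed signal minus the array's 75th percentile over 58717 spots was used. Testing required a signal well above background on all arrays of 1 group or more, as held for 23585 of 30367 probes, and the brightest tested probe stood for a gene. RefSeq accessions were matched to symbols through a RefSeq table (GRCr8), which named 17998 probes. limma 3.58.1 in R 4.3.3 fitted 3 group means over all tested probes (residual degrees of freedom 5, prior 1.93), with Benjamini-Hochberg adjustment over all of them, and p-values are two-sided. It was checked on simulated data. The number of arrays limits the precision.

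The members and all gene lists were chosen with earlier results of these data known. Values on each array are given for members past an adjusted p of 0.05 (there were 0), for those with the 4 lowest p-values per direction and comparison, and for a fixed set: Sema3a, Sema7a, Nrp1, Nrp2, Efnb2, Ephb1, Epha4, Ntn1, Dcc, Unc5b, Slit2, Robo1 and Robo2, with Plxna4 and Plxnc1 unmatched. Plxnb2 and the other members whose groups did not overlap are named too. Alternatives changed the normalization (normexp with offset 50 and quantile normalization, for which the median spot signal stood in for the mean signal; quantile normalization alone; median centring over detected probes; the deposited log2 values), the filter (none, or above background on each array), the model (replicate number or slide row as a block, slide column as a covariate, only the groups compared, a variance trend), the summary of a gene (mean of its probes) and the arrays (each left out). RefSeq, GRCr8, held a promoter window for 37 members and none for 13. Among members, motif matches were read only in the windows of Epha2, Efnb1 and Efna1.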

Additional observations from a re-analysis of the deposited data

How the results depend on the processing

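limma called 0 members at an adjusted p under 0.05 in each of the 3 comparisons and under all 20 alternatives run for each; the smallest adjusted p of any member under any of them was 0.055, for Sema7a in P61S/R100E against wild type without wild type replicate 1. Counts of members at an unadjusted p under 0.05 were small and moved. Between the mutants the count of 2 became 4 with normexp, with quantile normalization and with the slide column, and 1 with the slide row as a block or the mean of probes; leaving out an array gave 1 to 4. For P61S/R100E against wild type the 2 became 4 with normexp, 1 with the slide row, only the 2 groups or the mean of probes, and 0 with the slide column; leaving out an array gave 1 to 13. For P61S against wild type the 0 became 1 with the slide column, only the 2 groups or a variance trend, and 0 to 9 without an array. The values of 13 and 9 came without wild type replicate 1, where the single wild type array is assumed to vary like the other groups and 26.3% and 19.7% of all probes had an unadjusted p under 0.05 too (1244 and 250 probes passed the adjusted test).

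With the slide column as a linear covariate the median difference was -0.14 between the mutants, 0.07 for P61S/R100E and 0.18 for P61S against wild type. The first rests on column 2, with 1 array of each mutant, and the others extrapolate to column 4, which held only wild type. Without an array the medians against wild type ran from -0.25 to 0.01 and from -0.27 to 0.07.

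Of 1167 alternative values of 59 single differences, 70 turned sign, in 37 of the differences, and none passed the adjusted threshold. The slide column turned 16. In P61S against wild type they were Efna2 to 0.17, Efnb2 to 0.63, Ephb1 to 0.13, Nrp1 to 0.26, Nrp2 to 1.93, Ntn1 to 2.40 and Sema3a to 0.65. In P61S/R100E against wild type they were Efnb2 to 0.13, Nrp1 to 0.08, Nrp2 to 0.61, Ntn1 to 0.62, Robo1 to 0.40 and Sema3a to 0.17, and between the mutants Ephb1 to -0.04, Nrp1 to -0.17 and Robo2 to 0.06. The values that normexp, quantile normalization or median centring turned were at most 0.11 in size, before and after. Epha4 became 0.05, 0.05 and 0.01 (P61S) and 0.09, 0.11 and 0.06 (P61S/R100E) against wild type with normexp, quantile normalization and median centring, and Ephb1 became 0.10, 0.08 and 0.03 (P61S). Robo1 became 0.05, 0.10 and 0.02 in P61S/R100E against wild type and 0.02 between the mutants with normexp. Robo2 became 0.03 with normexp and with centring (P61S) and 0.01 with normexp (P61S/R100E), and Sema3a 0.01 between the mutants with quantile normalization. Averaging probes gave 0.02 for Ephb1 and 0.01 for Epha4, the deposited values gave -0.28 for Dcc and 0.11 for Unc5b between the mutants, and the replicate block gave -0.01 for Ephb1.

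Leaving out an array turned 32 values, 15 of them without wild type replicate 2. The ranges between the mutants were -0.16 to 0.08 for Efnb2, -0.01 to 0.06 for Epha4, -0.03 to 0.28 for Nrp1, -0.45 to 0.08 for Nrp2, -0.87 to 0.07 for Ntn1, -0.22 to 0.04 for Robo1, -0.11 to 0.03 for Robo2, -0.21 to 0.10 for Sema3a and -0.02 to 0.19 for Slit2. For P61S/R100E against wild type they were -0.06 to 0.01 for Epha4, -0.02 to 0.02 for Ephb1, -0.65 to 0.29 for Nrp1, -1.04 to 0.12 for Nrp2, -0.16 to 0.01 for Robo1, -0.18 to 0.01 for Robo2, -0.64 to 0.20 for Sema3a, -0.07 to 0.70 for Slit2 and -1.17 to 0.03 for Unc5b. For P61S against wild type they were -0.36 to 1.02 for Dcc, -0.50 to 0.05 for Efnb2, -0.73 to 0.20 for Nrp1, -0.79 to 0.38 for Nrp2, -0.82 to 0.31 for Ntn1, -0.10 to 0.14 for Robo1, -0.12 to 0.07 for Robo2, -0.56 to 0.28 for Sema3a, -1.08 to 0.24 for Sema7a, -0.13 to 0.63 for Slit2 and -0.91 to 0.29 for Unc5b. The cause was not tested. The deviations of same-numbered arrays from their group means had correlations from -0.198 to 0.167, so the numbers were not taken to pair the cultures. With the replicate number as a block the counts at an unadjusted p under 0.05 were 1 between the mutants and 0 in both comparisons with wild type, and 0 members were called. Few arrays, and signals near background for Efna5, Ntn1, Ntn4 and Dcc, limit what could be seen.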
